A study of Mus musculus with 18 samples.

Results

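Transcripts whose response to hydrogen peroxide (H2O2) changed with knockdown of peroxiredoxin 1 were sought in primary mouse cultures labelled as Leydig cells. Leydig cells are the androgen-producing cells of the testis interstitium, and markers of these and other cells are given below. The measure was the difference of differences, called here the interaction: the log2 fold change with H2O2 in cells transfected with siprdx1, the siRNA against Prdx1, minus the log2 fold change with H2O2 in cells transfected with the control siRNA, siNC. It was computed for every expressed gene, 16114 of 55487 in the table, from the 12 of 18 libraries that had no fluvastatin (FV). These came from 4 groups of 3 libraries. All 4 groups were transfected with a lipid reagent and ended with 6 h in 0.1% DMSO. The groups were siNC and siprdx1 without peroxide, and siNC+H2O2 and siprdx1+H2O2, which received 200 µM H2O2 for 30 min before the DMSO. The other 6 libraries, siNC+H2O2+FV and siprdx1+H2O2+FV, received 5 µM fluvastatin for the last 6 h and were kept out of the fit. Whether their medium held DMSO is not recorded. The labels name the libraries of a group biological replicates, without saying whether they came from separate animals, so the spread below is that between these cultures. Genotype and age of the mice and the number of siRNA sequences are not given in the sources used here.

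Peroxiredoxin 1 is an abundant cytosolic thiol peroxidase. Its catalytic cysteine is oxidised by H2O2 and is reduced again by thioredoxin, and the oxidised enzyme can pass its oxidation on to signalling proteins, so that it acts both as a scavenger and as a relay of peroxide signals. Immediate early genes are switched on by growth factor, cytokine and stress kinase signalling without new protein synthesis. Many of them encode transcription factors of the FOS, JUN, EGR and NR4A families or feedback inhibitors of the same kinases, and their mRNAs are short-lived.

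Prdx1 itself separated the arms. Its level, in counts scaled to a common library size (CPM), was 1378, 1398 and 1313 in the 3 siNC libraries and 514, 439 and 484 in the 3 siprdx1 libraries. After H2O2 it was 1734, 1695 and 1594 in siNC and 588, 498 and 524 in siprdx1. The knockdown effect on the log2 scale was -1.51 without and -1.64 with H2O2, and the interaction of -0.13 ± 0.10 (SE) did not pass (edgeR quasi-likelihood test, Benjamini-Hochberg adjusted p = 0.999). Library totals ranged from 15201530 to 23898435 counts. Of 30 genes of steroid synthesis and Leydig identity, 27 were expressed, among them Star and Cyp11a1. The late steroidogenic genes Cyp17a1 and Hsd17b3 reached at most 2 and 4 counts in any library. In siNC the list summed to 3985 to 4013 CPM, against 18844 to 19874 CPM for fibroblast markers. Leydig cells is therefore the name given by the labels. All 22 macrophage markers were expressed too, and their summed level is given beside the chemokines. The haemoglobin genes Hba-a1 and Hbb-bs had at most 1 count per library. The libraries also differed along the GC content of genes. The measure was the median log2 deviation from the gene mean in the GC-richest 20% of well-expressed genes, minus that in the GC-poorest 20%. It ran from -0.28 in siprdx1+H2O2 replicate 1 to 0.22 in siprdx1+H2O2 replicate 2.

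Of 29 immediate early genes tested, 11 rose less with H2O2 in siprdx1 than in siNC cells. Every group was sampled at a single time, after the 6 h in DMSO, so levels at that time are compared. A smaller peak, an earlier peak and a faster decay cannot be told apart here. The list of these genes was chosen with earlier results of these data known. Of the 16114 genes tested, 24 passed the interaction test at an adjusted p below 0.05, which is 0.149% of all genes. The interaction was negative for 22 of them (0.137% of all genes) and positive for 2 (0.0124%). At an unadjusted p below 0.05 there were 517 negative and 308 positive genes. With offsets for GC content and length, which remove differences between libraries along that axis, 103 negative and 60 positive genes passed, all 24 among them. Of the 22 negative genes, 14 rose with H2O2 in both arms and rose less in siprdx1, 3 rose in siNC and did not pass in siprdx1, and 5 fell in siprdx1 without passing in siNC. Over all genes, 1.66% rose and 3.68% fell with H2O2 in siNC, and 1.44% rose and 4.95% fell in siprdx1. In each of the 22 the 2 H2O2 groups did not overlap, with siprdx1 the lower in 20 and the higher in Cxcl10 and Stc1. The untreated groups overlapped in 17 of them. The genes were selected by a test on the same libraries, which favours such separation after H2O2. The shares over all genes were not computed, so both counts are a description.

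**Figure D1:**
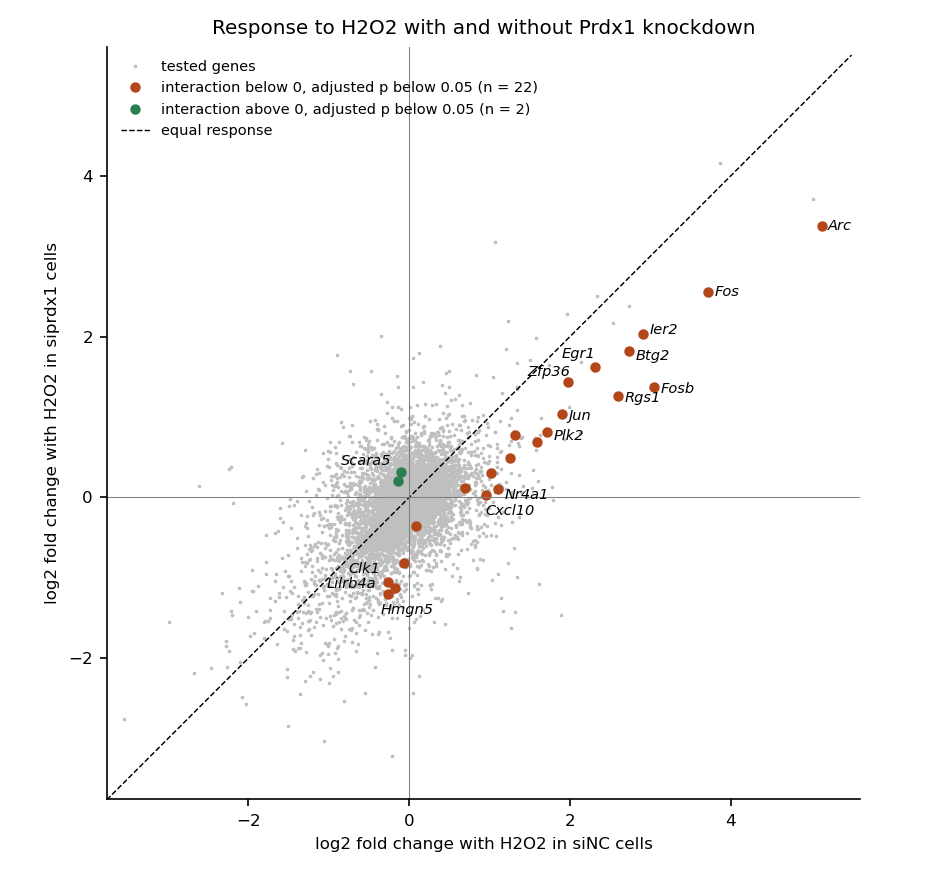
Log2 fold change with H2O2 in siNC cells (x axis) and in siprdx1 cells (y axis) for the 16114 tested genes (grey points), with the 22 genes of negative interaction in orange, the 2 of positive interaction in green and the line of equal response dashed. The orange genes at the right, Arc, Fos and Ier2 among them, rose in both arms and lie below the line, and the 5 orange genes below the horizontal axis passed as lower in siprdx1 and did not pass in siNC.

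The AP-1 subunits Fos, Fosb and Jun, whose proteins pair to form a transcription factor that binds stress-responsive genes, were among the 22. Fos (chr12:85473890-85477273 in GRCm38, plus strand) stood at 19.5, 21.6 and 18.6 CPM in siNC and at 17.7, 20.4 and 22.8 CPM in siprdx1 without peroxide. H2O2 brought it to 268, 253 and 266 CPM in siNC and to 113, 124 and 120.2 CPM in siprdx1. The untreated libraries of both arms overlapped, and every siNC library was above every siprdx1 library after H2O2. The rise of Fos was 3.72 ± 0.08 (SE) on the log2 scale in siNC and 2.56 ± 0.08 in siprdx1, and the interaction was -1.16 (95% interval -1.40 to -0.92, edgeR adjusted p = 7.26e-05). In CPM, the rise in siprdx1 was 40.8% of that in siNC.

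Jun (chr4:95049034-95052222, minus strand) gave 353, 348 and 355 CPM in siNC+H2O2 and 171, 193 and 196 CPM in siprdx1+H2O2. Its untreated levels were 96.2, 94.9 and 92.3 CPM in siNC against 79.0, 102 and 91.7 CPM in siprdx1, and these overlapped. The interaction of Jun was -0.86 ± 0.11 (edgeR adjusted p = 0.000641). Fosb (chr7:19302696-19310051, minus strand) was scarce before peroxide, with 36 to 54 counts per untreated library. It reached 14.1, 15.3 and 16.1 CPM in siNC+H2O2 and 5.30, 6.02 and 6.15 CPM in siprdx1+H2O2, an interaction of -1.67 ± 0.21 (edgeR adjusted p = 0.000824). Not every AP-1 member passed. Junb rose from a mean of 45.1 to 198.7 CPM in siNC and from 48.7 to 156.8 CPM in siprdx1, and its interaction of -0.46 ± 0.13 did not pass (edgeR adjusted p = 0.387), while with GC and length offsets it passed at -0.43 (adjusted p = 0.000677). For Fosl2, which did not pass in either arm, the interaction was -0.05 ± 0.07.

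Egr1, a zinc-finger factor induced through the MAP kinase cascade, and Atf3, a stress-induced bZIP factor, showed the same arrangement of groups. Egr1 (chr18:34859823-34864984, plus strand) had 144, 131 and 142 CPM in siNC against 121, 133 and 129 CPM in siprdx1, then 704, 673 and 701 CPM and 377, 413 and 383 CPM after H2O2. Its response was 2.32 in siNC and 1.62 in siprdx1, an interaction of -0.70 ± 0.08 on the log2 scale (edgeR adjusted p = 0.000383). Egr2, which rose by 0.53 in siNC, had an interaction of -0.33 ± 0.12 that did not pass. Atf3 (chr1:191170296-191218039, minus strand) rose to 66.3, 57.0 and 66.4 CPM in siNC and to 33.5, 37.4 and 39.3 CPM in siprdx1 from overlapping levels, 27.6, 24.6 and 27.3 CPM and 25.4, 25.9 and 27.2 CPM. The interaction of Atf3 was -0.76 ± 0.12 (edgeR adjusted p = 0.00474). Its call was lost (adjusted p = 0.0818) when siprdx1+H2O2 replicates 1 and 2, the extremes of the GC axis, were left out together, which leaves that group with 1 library.

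Arc, a cytoskeleton-associated protein best known from neurons, had the most negative interaction. Arc (chr15:74669083-74672570, minus strand) gave 1.31, 2.56 and 1.86 CPM in siNC against 1.81, 2.31 and 2.01 CPM in siprdx1, which is 28 to 57 counts per library. After H2O2 it stood at 67.1, 63.4 and 71.0 CPM in siNC and at 19.7, 22.1 and 22.3 CPM in siprdx1. The response was 5.13 ± 0.14 in siNC and 3.37 ± 0.15 in siprdx1 on the log2 scale, an interaction of -1.76 (95% interval -2.25 to -1.27, edgeR adjusted p = 0.00121). Ier2 (chr8:84661331-84662852, minus strand), a small nuclear immediate early protein, rose to 184, 187 and 204 CPM in siNC and to 88.0, 113 and 98.0 CPM in siprdx1. Its interaction was -0.88 ± 0.13 (edgeR adjusted p = 0.00418).

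Nr4a1, an orphan nuclear receptor that drives steroidogenic promoters in Leydig cells, was induced in siNC and did not pass in siprdx1. Nr4a1 (chr15:101254269-101274795, plus strand) read 22.1, 20.5 and 22.6 CPM in siNC against 47.3, 44.4 and 48.7 CPM in siNC+H2O2. In siprdx1 it read 21.9, 24.6 and 23.0 CPM, and 22.4, 27.1 and 25.1 CPM after H2O2, so that these groups overlapped. The response was 1.11 ± 0.08 in siNC and 0.10 ± 0.08 in siprdx1, and the interaction was -1.004 ± 0.12 (edgeR adjusted p = 0.000383). Its relatives Nr4a2 and Nr4a3 had mean levels of 1.63 and 1.96 CPM and intervals of the interaction of -1.25 to 0.74 and -0.97 to 0.65, too wide to place them.

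Btg2 had the smallest p of all genes. It encodes an antiproliferative adaptor of mRNA deadenylation that is both an immediate early gene and a p53 target. Btg2 (chr1:134075170-134079120, minus strand) lay at 47.7, 48.2 and 48.6 CPM in siNC against 43.9, 43.5 and 43.7 CPM in siprdx1, and at 323, 326 and 316 CPM and 150.0, 154 and 160.0 CPM after H2O2. Its interaction was -0.91 ± 0.07 (edgeR adjusted p = 6.99e-06), and the rise in CPM was 40.6% of that in siNC. Plk2, a polo-like kinase on the p53 list, rose to 69.2, 71.7 and 64.5 CPM in siNC and to 35.9, 35.8 and 37.7 CPM in siprdx1 from 19.2, 22.9 and 20.5 CPM and 21.2, 19.9 and 21.1 CPM. The interaction of Plk2 was -0.90 ± 0.11 (edgeR adjusted p = 0.000383). Btg2 and Plk2 were the only 2 of 26 tested p53 targets to pass, and 12 of the 26 were below 0, with a median interaction of 0.03. The classical target Cdkn1a, a cell-cycle inhibitor, rose in both arms, with an interaction of -0.06 ± 0.09.

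The feedback inhibitors Dusp1, a phosphatase that inactivates p38 and JNK, and Zfp36, which destabilises AU-rich mRNAs, kept the largest shares of their rise among the called immediate early genes. Dusp1 measured 433, 414 and 453 CPM in siNC+H2O2 and 317, 367 and 329.7 CPM in siprdx1+H2O2, from 177, 164 and 180.3 CPM and 193, 202 and 194 CPM. The knockdown libraries were above the control libraries before peroxide and below them after it. The rise of Dusp1 in siprdx1 was 54.4% of that in siNC, and the interaction was -0.54 ± 0.09 (edgeR adjusted p = 0.01). Zfp36 went to 228, 211 and 229 CPM in siNC and to 156, 178 and 159 CPM in siprdx1, and the rise in siprdx1 was 62.5% of that in siNC, with an interaction of -0.54 ± 0.09 (edgeR adjusted p = 0.0109). Dusp1 lost its call without siprdx1+H2O2 replicate 3 (adjusted p = 0.0712). Zfp36 lost it without siNC replicate 3, siNC+H2O2 replicate 1, siprdx1 replicate 3 or siprdx1+H2O2 replicate 3, at an adjusted p of up to 0.0712.

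**Figure D2:**
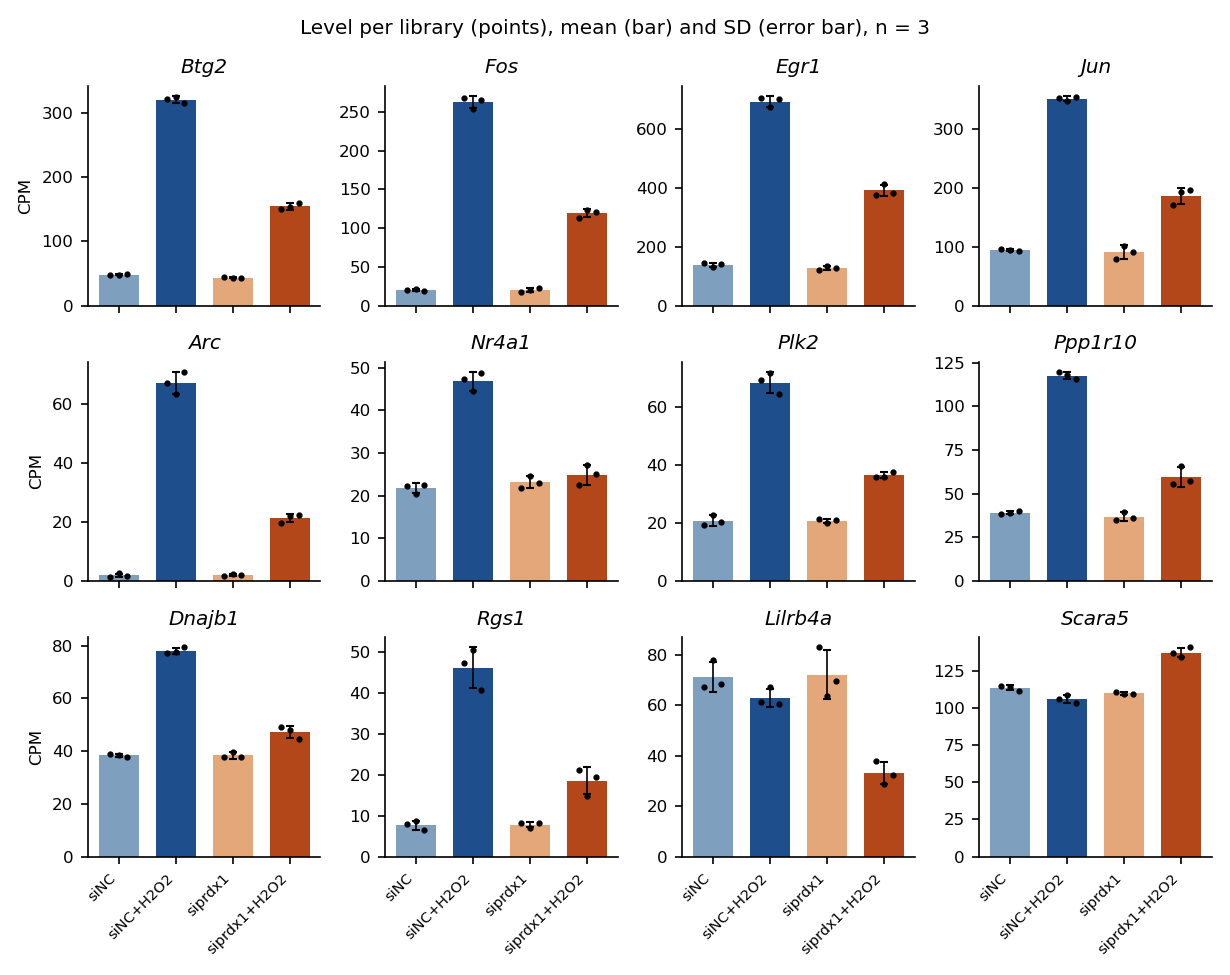
Level in CPM of 12 named genes in each of the 4 groups, with libraries as points, means as bars and SD as error bars (n = 3). In Btg2, Fos, Egr1, Jun, Arc, Plk2, Ppp1r10, Dnajb1 and Rgs1 the dark orange bar (siprdx1+H2O2) lies between the dark blue bar (siNC+H2O2) and the untreated bars, in Nr4a1 it is level with them, in Lilrb4a it is the lowest bar and in Scara5 the highest.

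Counted over the whole list of immediate early genes, 11 of 29 tested members had a negative interaction that passed and none a positive one, and 28 of the 29 were below 0. The exception was Gadd45b, a growth-arrest protein, at 0.13 ± 0.10. The median interaction was -0.36, against -0.003 for all genes, of which 50.7% were below 0. The list was chosen with earlier results of these data known, so these counts and the median are a description and not a test. H2O2 raised 22 of the 29 in siNC (median 0.73) and 16 in siprdx1 (median 0.44). Among the 22 that rose in siNC, the rise in siprdx1 was smaller in 21. These 22 were chosen by their siNC response, which the interaction subtracts, so the choice favours a smaller rise in siprdx1. The share among all genes that rose in siNC was not computed. Outside the 11, another 8 members had a 95% interval wholly below 0 without passing after adjustment, among them Ier5 at -0.43 ± 0.09 (adjusted p = 0.0868), Klf2 at -0.47 ± 0.13 and Myc at -0.32 ± 0.10. With GC and length offsets 16 of the 29 passed, the further ones being Klf6, Csrnp1, Junb, Klf2 and Ier5. The median knockdown effect was 0.03 without peroxide and -0.35 with it.

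**Figure D3:**
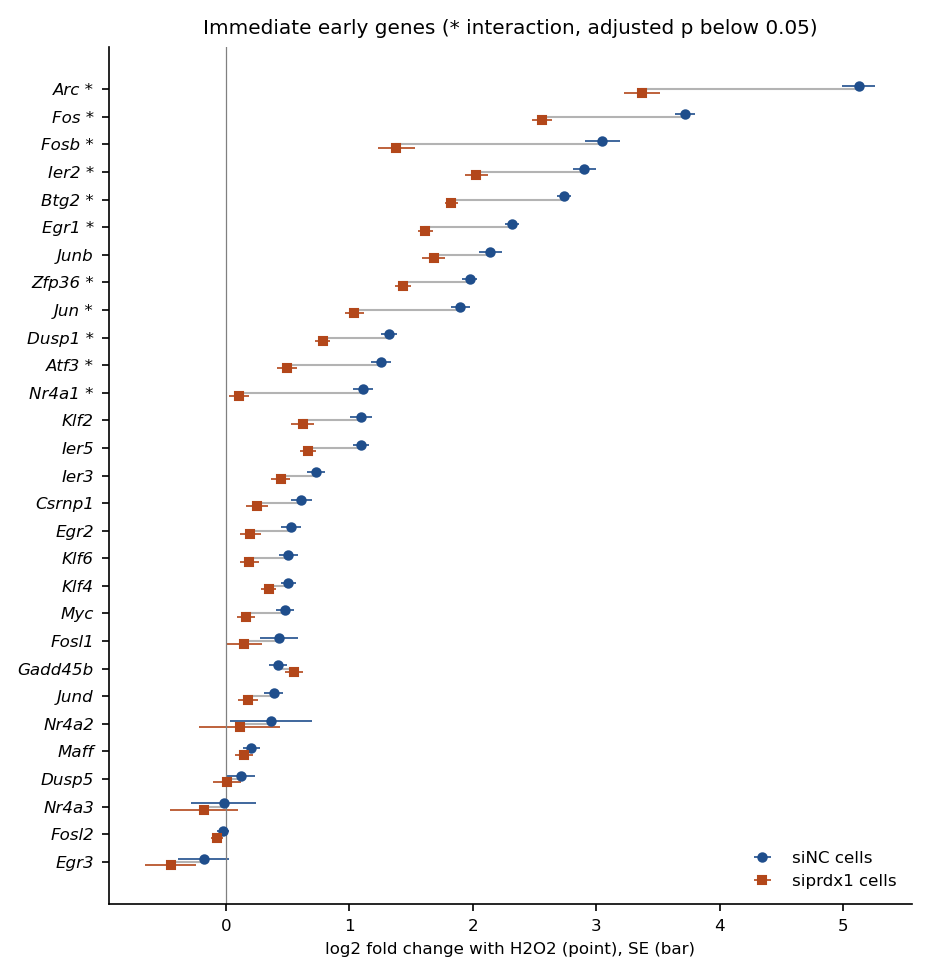
Log2 fold change with H2O2 of the 29 tested immediate early genes in siNC cells (blue circles) and siprdx1 cells (orange squares), with SE as bars, ordered by the siNC response. The orange square lies to the left of the blue circle in every gene except Gadd45b, and asterisks mark the 11 genes that passed the interaction test.

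Of the 24 genes, 15 had a RefSeq promoter in GRCm38.p6, all of them of negative interaction, and the 250 bases upstream of the start were searched on both strands. Egr1, Arc, Ier2, Rgs1, Lilrb4a, Clk1, Stc1, Scara5 and Sparcl1 had no such entry and were not searched. Sites farther upstream were not searched in any gene, so a motif missing below may lie outside the window. The palindromic cyclic AMP response element TGACGTCA, bound by CREB and ATF factors, occurred in 3 of 15 (Btg2, Plk2 and Dusp1) and in 1.77% of 27025 genes. Its shorter core TGACG, which the full element contains, occurred in 8 of 15 and in 19.8% of all. The 8 were Btg2, Fos, Nr4a1, Dnajb1, Plk2, Fosb, Atf3 and Dusp1. The CArG box, bound by serum response factor, was in Zfp36 alone (1.62% of all), the AP-1 motif TGANTCA in Cxcl10 alone (7.82%), and the heat shock core GAANNTTC in Ppp1r10 and Jun (7.73%). An antioxidant response core, TGACNNNGC, was found in 4 of 15, namely Ppp1r10, Dnajb1, Dusp1 and Cxcl10, against 11.5% of all, and TATAAA in 3 of 15 against 14.3%. These are letter matches in a fixed window and not sites shown to be bound. The windows of 5 members are shown because they hold the full element or more than a single core, which are in capitals. They are Btg2 (chr1:134079156-134079405, minus strand), Plk2 (chr13:110394794-110395043, plus strand), Dusp1 (chr17:26508473-26508722, minus strand), Fos (chr12:85473640-85473889, plus strand) and Nr4a1 (chr15:101266596-101266845, plus strand), each written from 5′ to 3′ on its own strand and ending at the base before the start.
Btg2: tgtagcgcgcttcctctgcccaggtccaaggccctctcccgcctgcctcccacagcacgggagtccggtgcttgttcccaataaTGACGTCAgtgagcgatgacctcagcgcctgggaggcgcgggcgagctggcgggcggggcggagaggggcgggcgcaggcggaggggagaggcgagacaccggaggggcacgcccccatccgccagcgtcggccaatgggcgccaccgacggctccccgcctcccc
Plk2: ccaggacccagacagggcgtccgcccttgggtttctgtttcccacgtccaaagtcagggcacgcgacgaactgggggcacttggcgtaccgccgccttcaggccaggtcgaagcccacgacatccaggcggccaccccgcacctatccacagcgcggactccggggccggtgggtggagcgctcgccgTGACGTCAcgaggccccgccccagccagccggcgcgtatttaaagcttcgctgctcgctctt
Dusp1: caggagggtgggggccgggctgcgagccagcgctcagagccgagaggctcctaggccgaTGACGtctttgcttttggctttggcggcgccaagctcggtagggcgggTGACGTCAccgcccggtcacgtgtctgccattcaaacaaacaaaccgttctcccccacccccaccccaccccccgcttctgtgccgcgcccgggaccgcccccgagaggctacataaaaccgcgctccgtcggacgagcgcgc
Fos: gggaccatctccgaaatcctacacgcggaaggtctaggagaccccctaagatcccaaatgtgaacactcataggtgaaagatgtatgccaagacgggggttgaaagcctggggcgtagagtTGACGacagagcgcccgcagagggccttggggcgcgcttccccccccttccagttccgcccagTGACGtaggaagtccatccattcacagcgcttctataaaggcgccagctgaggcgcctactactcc
Nr4a1: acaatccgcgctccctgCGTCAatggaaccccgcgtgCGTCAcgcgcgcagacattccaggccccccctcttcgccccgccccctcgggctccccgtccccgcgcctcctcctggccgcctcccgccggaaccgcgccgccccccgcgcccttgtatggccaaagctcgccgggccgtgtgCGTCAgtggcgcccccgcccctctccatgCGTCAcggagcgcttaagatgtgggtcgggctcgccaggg

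In Btg2 the full element covers positions -166 to -159 from the start, in Plk2 -62 to -55 and in Dusp1 -143 to -136. Fos has cores at -129 to -125 and -66 to -62. Nr4a1 has 4, all read on the opposite strand as CGTCA, and the nearest lies at -40 to -36.

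Ppp1r10 and Dnajb1, outside the immediate early list, also rose less in siprdx1. Ppp1r10 encodes PNUTS, a nuclear targeting subunit of protein phosphatase 1 that takes part in transcription termination. It measured 38.4, 38.8 and 40.2 CPM in siNC, 35.1, 39.7 and 35.8 CPM in siprdx1, 119.6, 118 and 115 CPM in siNC+H2O2 and 55.5, 65.7 and 57.3 CPM in siprdx1+H2O2. The interaction was -0.90 ± 0.10 (edgeR adjusted p = 0.000383), and the rise in CPM was 28.9% of that in siNC. Dnajb1, an HSP40 co-chaperone, went from 38.9, 38.6 and 37.6 to 77.1, 77.7 and 79.3 CPM in siNC and from 37.6, 39.7 and 37.7 to 49.0, 48.1 and 44.7 CPM in siprdx1. The H2O2 groups did not overlap, and the interaction was -0.72 ± 0.09 (edgeR adjusted p = 0.000383). Dnajb1 was the only 1 of 23 heat shock chaperones to pass. For Hspa1a, the inducible HSP70, whose near-identical copy Hspa1b can share its reads, the levels after H2O2 overlapped at 20.3, 20.8 and 22.2 CPM in siNC against 18.9, 20.1 and 21.2 CPM in siprdx1, and the interaction was -0.33 ± 0.14.

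Rgs1, Ccl3 and Cxcl10 were among the negative calls too. Rgs1, a regulator of G-protein signalling of leukocytes, reached 47.2, 50.5 and 40.7 CPM in siNC+H2O2 and 21.2, 14.8 and 19.5 CPM in siprdx1+H2O2, from 7.85, 8.59 and 6.40 CPM and 8.11, 7.01 and 8.09 CPM, an interaction of -1.34 ± 0.20 (edgeR adjusted p = 0.00409). The chemokine Ccl3 rose to 46.1, 50.8 and 44.1 CPM in siNC and measured 31.3, 32.1 and 31.1 CPM in siprdx1, with 29.6, 29.5 and 28.0 CPM and 30.3, 27.8 and 29.4 CPM before peroxide. Its interaction was -0.58 ± 0.10 (edgeR adjusted p = 0.0154). Cxcl10, an interferon-induced chemokine, differed from the others in its start. It stood at 2.99, 4.00 and 3.50 CPM in siNC and at 7.90, 7.44 and 7.57 CPM in siprdx1, and after H2O2 at 7.04, 6.69 and 6.67 and 7.84, 7.25 and 8.32 CPM. Its negative interaction of -0.92 ± 0.18 (edgeR adjusted p = 0.0436) came with a level that was higher with knockdown before peroxide, and its H2O2 response in siprdx1 did not pass. Of the 22 alternative settings that kept the threshold of 0.05 and added no minimum difference, Ccl3 lost its call in 7 and Cxcl10 in 14. A replicate block was among those for Cxcl10 (adjusted p = 0.101). In 1 of the 22, an omission of 2 libraries, siprdx1+H2O2 holds a single library that is assumed to vary like the other groups.

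Over the list of NF-kappaB targets and inflammatory mediators, Ccl3 alone of 30 tested passed, and 24 were below 0, with a median of -0.14. H2O2 raised 10 of the 30 in siNC and 2 in siprdx1. The chemokines Ccl7 (-0.68 ± 0.13, adjusted p = 0.0508), Ccl4 (-0.64 ± 0.15) and Ccl2 (-0.49 ± 0.11) did not pass, and Tnf rose in both arms, with an interaction of -0.14 (95% interval -0.41 to 0.14). With GC and length offsets Ccl7 (-0.62, adjusted p = 3.10e-05) and Ccl4 (-0.60, adjusted p = 0.0200) passed. Of 22 macrophage markers, H2O2 raised 2 in siNC and none in siprdx1, none passed the interaction test, 17 were below 0, and their median was -0.12. With the offsets C1qb and Cd14 passed as negative. Their summed level was 9810 to 10658 CPM in siNC, 11108 to 11750 CPM in siNC+H2O2, 9274 to 9526 CPM in siprdx1 and 9608 to 9717 CPM in siprdx1+H2O2. The part of macrophage RNA in the response of Rgs1, Ccl3 and Cxcl10 was not tested. In these mixed cultures, fewer cells of a type and less RNA per cell cannot be told apart.

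In 5 genes the negative interaction was a fall in siprdx1 and not a smaller rise. Lilrb4a, an inhibitory receptor of myeloid cells, read 67.3, 78.0 and 68.6 CPM in siNC, 61.3, 67.2 and 60.6 CPM in siNC+H2O2 and 83.0, 63.8 and 69.8 CPM in siprdx1, and dropped to 37.8, 29.0 and 32.5 CPM in siprdx1+H2O2. The interaction was -0.95 ± 0.14 (edgeR adjusted p = 0.00474). Its neighbour Lilr4b read 202, 199 and 168 CPM in siNC+H2O2 and 131, 101 and 117 CPM in siprdx1+H2O2, with an interaction of -0.75 ± 0.13 (edgeR adjusted p = 0.0273). The transcripts of these 2 genes are 95.4% identical over 3786 bases, so the counting could move reads between them and they are not independent calls. Both also overlap Gm49339 on the same strand. Clk1, a kinase of splicing factors, had 135, 153 and 128 CPM in siNC+H2O2 and 101, 75.3 and 85.4 CPM in siprdx1+H2O2, against 161, 180.1 and 156 CPM and 193, 164 and 187 CPM before, and an interaction of -0.80 ± 0.14 (edgeR adjusted p = 0.0172). Hmgn5, a nucleosome-binding protein, fell to 4.28, 4.69 and 4.89 CPM in siprdx1+H2O2 against 10.2, 9.46 and 9.67 CPM in siNC+H2O2 (-0.94 ± 0.16, edgeR adjusted p = 0.0144), and a copy, Gm11914, is 99.4% identical to it over 507 bases.

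Stc1, a secreted glycoprotein hormone, was the fifth. It was higher with knockdown before peroxide, at 182, 166 and 177 CPM in siprdx1 and 104, 103 and 103 CPM in siNC, with no overlap. With H2O2 it measured 111, 109 and 111 CPM in siNC and fell to 144, 136 and 132 CPM in siprdx1, an interaction of -0.44 ± 0.08 (edgeR adjusted p = 0.0189). The gap between the arms was narrower after H2O2, and the siprdx1 libraries were still above every siNC library. Of these 5 genes, Lilrb4a kept its call in all 22 alternatives that kept the thresholds, and Hmgn5, Clk1, Stc1 and Lilr4b lost theirs in 5, 7, 9 and 9 of them, for Lilr4b with a replicate block among them (adjusted p = 0.0571). How the counting treated strand is not given in the sources used here, so reads of an antisense partner cannot be told apart for Cxcl10 (Art3), Dusp1 (Ergic1), Jun (Junos), Stc1 (Gm41192), Zfp36 (Gm44710) and Lilrb4a (Gm40645).

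The 2 genes of positive interaction rose in siprdx1, and their response in siNC did not pass. Scara5, a scavenger and ferritin receptor of stromal cells, had 115, 114 and 112 CPM in siNC, 106, 109 and 103 CPM in siNC+H2O2, 111, 109 and 109.6 CPM in siprdx1 and 137, 134 and 141 CPM in siprdx1+H2O2. The interaction was 0.42 ± 0.07 (edgeR adjusted p = 0.0154). Sparcl1, a secreted matricellular protein, had 376, 374 and 366 CPM in siNC+H2O2 and 469.9, 484 and 473 CPM in siprdx1+H2O2, an interaction of 0.34 ± 0.06 (edgeR adjusted p = 0.0368). In both genes the siprdx1+H2O2 libraries were above all others of the 12. Their calls were lost in 7 and 13 of those 22 settings, for Sparcl1 with a replicate block among them (adjusted p = 0.0651). Next in order, and not passing, came Thbs2, a matrix glycoprotein (0.38 ± 0.08, edgeR adjusted p = 0.0952), Abat, a GABA transaminase (0.32 ± 0.07), and Tmem44 (0.52 ± 0.12).

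Of 44 extracellular matrix genes tested, none passed, 5 were below 0 and the median interaction was 0.13. H2O2 raised 6 and lowered 1 of them in siprdx1, and raised none and lowered 1 in siNC. The median knockdown effect on the list was -0.30 without peroxide and -0.19 after it. Eln, the elastin gene, stood at 327, 281 and 313 CPM in siNC, 145, 147 and 138 CPM in siprdx1, 337, 320.0 and 335 CPM in siNC+H2O2 and 175, 195 and 188 CPM in siprdx1+H2O2, and its interaction of 0.27 ± 0.09 did not pass (edgeR adjusted p = 0.583). With GC and length offsets, 8 members passed as positive, among them Eln, Lox, Col3a1, Dcn and Thbs2, and 1, Spp1, as negative. Of 12 fibroblast markers tested, none passed (2 with the offsets, Dcn and Col3a1), 1 was below 0, and their summed level was 18844 to 19874 CPM in siNC, 19981 to 20682 CPM in siNC+H2O2, 15952 to 16728 CPM in siprdx1 and 18125 to 19580 CPM in siprdx1+H2O2. Their part in the matrix values was not tested.

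Genes that defend against peroxide gave no call without the offsets. Of 31 NRF2 targets, the genes of the main electrophile and oxidant response, none passed, 18 were below 0 and the median interaction was -0.02. Nqo1, a quinone reductase, rose in both arms, to 28.1, 25.4 and 23.7 CPM in siNC against 35.1, 32.4 and 31.6 CPM in siprdx1, and the interval of its interaction was -0.37 to 0.12. For Hmox1, haem oxygenase 1, the interval was -0.16 to 0.16, and for Srxn1, the sulfiredoxin that repairs overoxidised peroxiredoxins, -0.28 to 0.03. Among 26 peroxide-removing and antioxidant enzymes none passed, and the median was 0.01. Of 38 genes of the integrated stress response and endoplasmic reticulum stress none passed, with a median of -0.04. Atf4, the central factor of that response, rose by 0.62 in siNC and 0.37 in siprdx1, and its interaction of -0.25 ± 0.07 did not pass (edgeR adjusted p = 0.427). With GC and length offsets Atf4 passed at -0.21 (adjusted p = 0.0371), as did Aldh1l2 at -0.41 (adjusted p = 0.00516). Txnip, an inhibitor of thioredoxin that is on the list of antioxidant enzymes, then passed as positive at 0.22 (adjusted p = 0.00805).

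Steroidogenic genes gave 1 call in 27, Nr4a1. Star, which carries cholesterol into mitochondria, read 198, 218 and 194 CPM in siNC+H2O2 and 175, 175 and 182 CPM in siprdx1+H2O2, with an interaction of -0.16 (95% interval -0.33 to 0.01). For Cyp11a1, the side-chain cleavage enzyme, it was -0.15 (-0.29 to -0.0025). Cholesterol synthesis and uptake had no call in 29, yet 27 were below 0, with a median of -0.11. Mitochondrially encoded transcripts had no call in 13, and 12 were below 0, with a median of -0.22. Their share of all counts was 1.38% ± 0.02 (SD, n = 3) in siNC, 1.18% ± 0.05 in siNC+H2O2, 1.40% ± 0.09 in siprdx1 and 1.10% ± 0.13 in siprdx1+H2O2, and with GC and length offsets the median of the list was -0.05.

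The other lists gave few or no calls. Cxcl10 alone of 42 interferon-stimulated genes passed, and Dusp1 alone of 22 MAP kinase feedback inhibitors and EGF family members. With GC and length offsets Irf7 and Stat2 of the interferon list passed as well, as positive. None passed among targets of actin, SRF and MRTF signalling (26 tested), YAP and TEAD targets (22), TGF-beta and BMP signalling (29), cell cycle (31), apoptosis (25), ferroptosis and iron (19), autophagy and lysosome (34), nuclear-encoded oxidative phosphorylation (33), glycolysis and hypoxia (34), replication-dependent histones (14), and nuclear and snoRNA-host long noncoding RNAs (23). The medians of these lists without a call lay between -0.09 and 0.09, and with the offsets at most 2 members passed in any of them. In the order named, 8, 3, 8, 23, 14, 9, 22, 25, 25, 7 and 15 of their members were below 0. Of 39 cytosolic ribosomal protein genes none passed, 33 were below 0 and the median was -0.07. Markers of smooth muscle (10 tested), Sertoli cells (8), endothelium (8), germ cells (3), and lymphocytes and granulocytes (2) had no call either, and no erythrocyte marker was expressed enough to be tested.

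**Figure D4:**
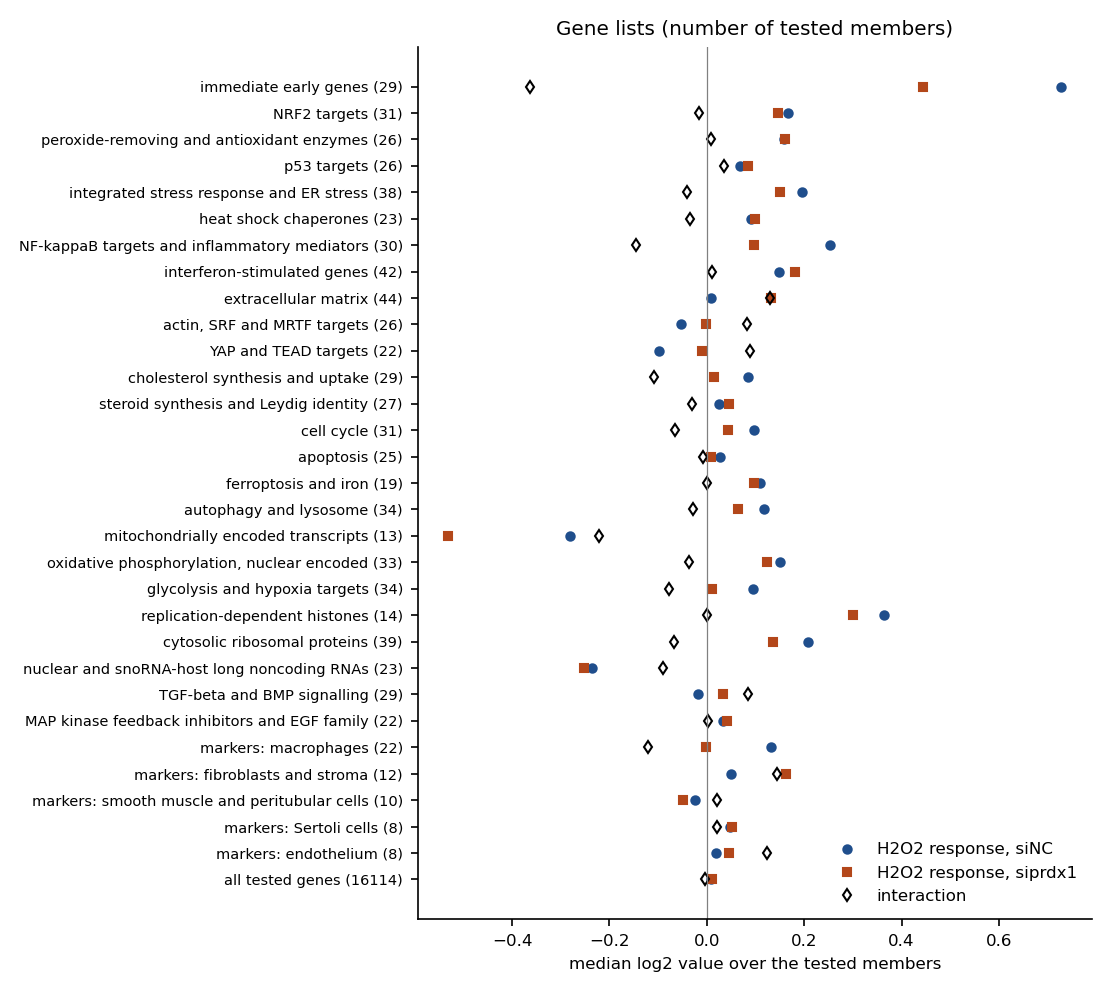
Median log2 response to H2O2 in siNC (blue circles) and siprdx1 (orange squares) and median interaction (open diamonds) over the tested members of each gene list, with the number of members in brackets and all tested genes at the bottom. The immediate early genes have the diamond farthest to the left, at -0.36, and extracellular matrix and fibroblast markers the diamonds farthest to the right.

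Read the other way round, the interaction is the difference between the knockdown effect with and without peroxide. The 24 genes were selected by that difference, so their values are a description. Over the 22 negative genes the median knockdown effect was 0.02 without H2O2 and -0.91 after H2O2, and the 95% interval after H2O2 lay below 0 in 20. The fluvastatin libraries, which share none of the 12, gave a median of 0.09, and there the interval lay below 0 in 1 of 22 and above 0 in 8, against 8.83% and 7.93% of all genes. In 15 of the 22 every fluvastatin library was above every H2O2 library, on a scale common to all 18. The share of all genes with this order was not computed, so whether 15 of 22 is unusual was not tested. Nr4a1 stood at 1039 to 1294 CPM with fluvastatin and at 21.9 to 47.6 CPM with H2O2 alone, and Fosb at 375 to 495 CPM and 5.19 to 15.7 CPM. Fos was not one of the 15: after H2O2 and fluvastatin it stood at 193, 209.9 and 211 CPM in siNC against 223, 221 and 218 CPM in siprdx1, a knockdown effect of 0.11 (95% interval -0.02 to 0.24). Btg2 measured 877, 895 and 891 CPM and 887, 903 and 890.2 CPM, and the effect was 0.01 (-0.08 to 0.09). Clk1 was the gene whose interval stayed below 0, at -0.34 (-0.53 to -0.14). Scara5 kept its higher level with knockdown, at 0.34 (0.24 to 0.44), and for Cxcl10 the effect was 1.10, close to the 1.12 seen without peroxide. The difference between the effect in H2O2 and in H2O2 with fluvastatin was not tested here.

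**Figure D5:**
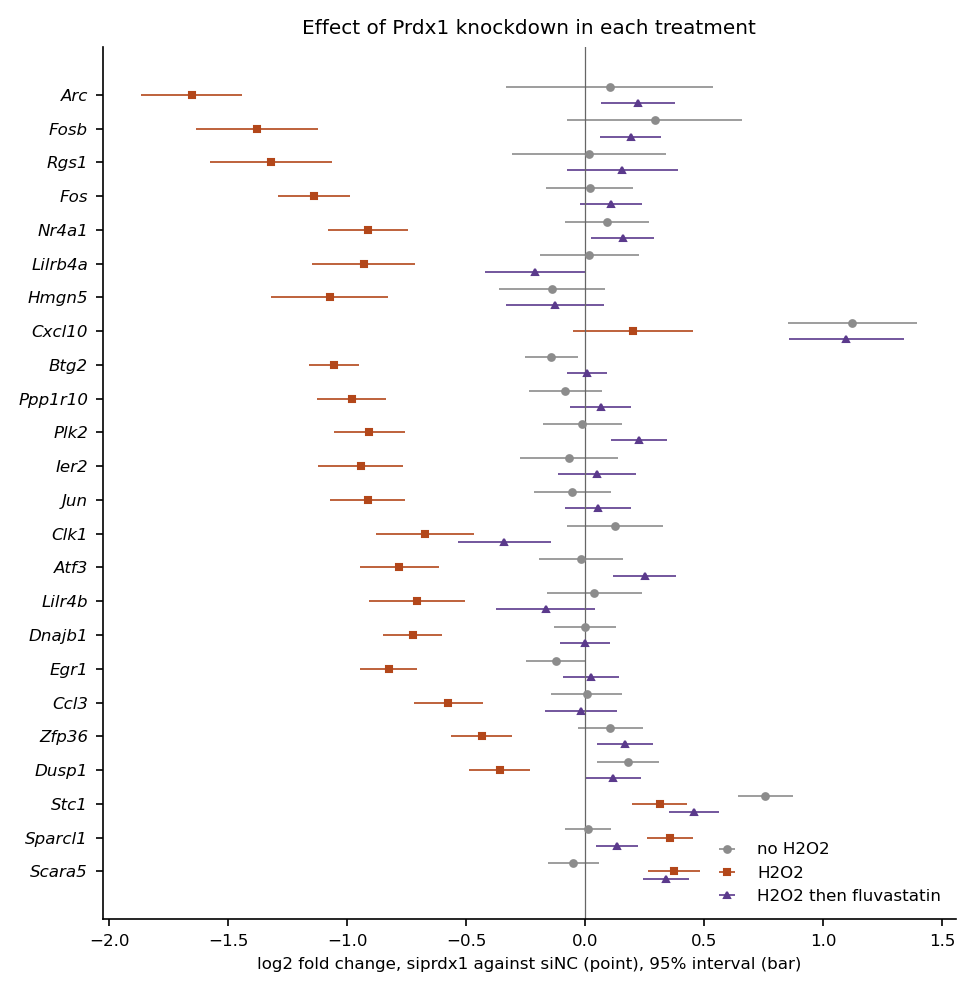
Log2 fold change of siprdx1 against siNC for the 24 genes without H2O2 (grey circles), with H2O2 (orange squares) and with H2O2 then fluvastatin (purple triangles), with 95% intervals as bars. The orange squares of 20 genes lie wholly below 0, while the grey and purple points of most of these genes lie near 0.

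The responses of the arms to peroxide, which have no library in common, overlapped in part. Of 268 genes that rose in siNC and 232 in siprdx1, 83 rose in both, 31.0% and 35.8% of the lists. Of 593 and 798 genes that fell, 388 fell in both, 65.4% and 48.6%. Over omissions of single libraries the genes that rose in both numbered 54 to 104, which is 25.1% to 51.7% of the siNC list and 24.5% to 56.1% of the siprdx1 list. Those that fell in both numbered 211 to 423, or 49.2% to 80.2% and 28.8% to 56.8%. The first count was lower by over 1.5 times without siprdx1 replicate 3 (54) or siprdx1+H2O2 replicate 3 (55), and the second without siNC replicate 2 (237) or 3 (233), siNC+H2O2 replicate 1 (211) or 3 (215), or siprdx1+H2O2 replicate 3 (247). With GC and length offsets they were 254 and 527. None passed as higher in one arm and lower in the other. Passing in a single arm depends on the threshold and does not show that the arms differ. Of the genes higher in siNC alone, 3 passed the interaction test, and of those higher in siprdx1 alone, 2 did. Of the genes lower in siprdx1 alone, 4 with a larger fall there and 1 of opposite sign passed it. Among the 83 genes that rose in both, the interaction was below 0 in 63, and the median response was 0.55 in siNC and 0.40 in siprdx1. Among the 388 that fell in both it was below 0 in 244, with medians of -0.49 and -0.59. No gene of the 388 passed the interaction test, and 14 of the 83 did. For a gene at 10 CPM or more the median SE of the interaction was 0.11 on the log2 scale, and the smallest difference that passed was 0.34.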

How the data were processed

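Poly(A) RNA of 18 cultures was sequenced as stranded paired-end libraries, per the labels' protocols. The authors deposited raw read counts per gene in 1 table. The submitters' processing notes name the mm10 build, HISAT2 and HTSeq, with no version. Annotation and strand setting are not given in the sources used here. Columns were matched to samples by the labels.

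From the deposited counts, a quasi-likelihood model of 4 group means was fitted to the 12 libraries without fluvastatin (edgeR 4.0.16, R 4.3.3, TMM scaling, filterByExpr, robust glmQLFit, 8 residual degrees of freedom). CPM values are TMM-scaled. P-values were adjusted by Benjamini-Hochberg over 16114 genes and called below 0.05. The SE is the log2 difference over the root of F. Knockdown effects with fluvastatin come from a fit to 18 libraries. Alternatives used limma 3.58.1 (voom) and DESeq2 1.42.0. Coordinates are from GENCODE M21 (GRCm38), which is the mm10 assembly, promoters from RefSeq (GRCm38.p6), and similar transcripts from blastn 2.17.0.

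The comparison, its members and the 33 gene lists (8 of markers) were chosen with earlier results of these data known. Named genes were the 15 smallest p per direction at 1 CPM or more, or the 5 smallest where fewer than 5 passed, the 5 largest differences at 10 CPM or more, called list members (up to 4 per list) and a fixed set of genes. Zfp36, Hmgn5, Clk1, Stc1 and Lilr4b fell outside this rule and were named after their values were seen because all 24 called genes are given, and so were the uncalled list members named. Deviations of same-numbered libraries from their group means correlated by 0.13 to 0.14 between siNC and siNC+H2O2. Between siprdx1 and siprdx1+H2O2 the values were 0.19, 0.28 and -0.006. The labels give no pairing, and the correlation between libraries of different number was not examined. Whether the numbers pair the cultures was therefore not settled in either arm. No library pair agreed within sampling noise.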

Additional observations from a re-analysis of the deposited data

Results flagged for a closer look

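The 24 genes of the interaction are those in which the effect of H2O2 differed between the siRNA arms by the test of the difference itself (edgeR quasi-likelihood test with Benjamini-Hochberg adjustment). Of the genes that rose in siNC and rose less in siprdx1, the log2 interaction was as follows: Btg2 -0.91, Fos -1.16, Nr4a1 -1.004, Egr1 -0.70, Jun -0.86, Fosb -1.67, Arc -1.76, Ier2 -0.88, Atf3 -0.76, Dusp1 -0.54 and Zfp36 -0.54 among the immediate early genes, and Ppp1r10 -0.90, Dnajb1 -0.72, Plk2 -0.90, Rgs1 -1.34, Ccl3 -0.58 and Cxcl10 -0.92 among the others. In the genes that fell in siprdx1 it was Lilrb4a -0.95, Hmgn5 -0.94, Clk1 -0.80, Stc1 -0.44 and Lilr4b -0.75. In the positive genes it was Scara5 0.42 and Sparcl1 0.34. No group of this design was large enough to be screened for outlying libraries.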

How the results depend on the processing

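Settings were changed one at a time, except where 2 are named together. All 24 genes kept the sign of their interaction in every setting, and 13 of them kept their call in all 22 settings that kept the threshold and added no minimum difference: Btg2, Fos, Ppp1r10, Nr4a1, Egr1, Dnajb1, Plk2, Jun, Fosb, Arc, Rgs1, Ier2 and Lilrb4a. Without the setting that leaves siprdx1+H2O2 with 1 library, 14 kept it in the other 21, Atf3 being added. Of 528 gene values tried for the 24, 451 stayed on the same side of the threshold and 77 lost the call. The number of genes called, 24 (2 positive, 22 negative), was 80 (10 and 70) without the low-count filter, 40 with 7 positive in a fit to all 18 libraries, 50 (9 and 41) with DESeq2, and 163 (60 and 103) with GC and length offsets. With those offsets the H2O2 responses counted 1300 genes in siNC and 2081 in siprdx1, against 861 and 1030. At an adjusted p below 0.1, 1402 genes passed in siNC. Requiring an absolute log2 difference of at least 1 left 5 genes called, 0 positive and 5 negative, 4 of them immediate early genes, and 143 and 239 genes of the responses.

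Same-numbered libraries correlated above 0.1 in every siNC pair, in some of the siprdx1 pairs, and by -0.15 to 0.12 between the arms. Whether the replicate numbers pair the cultures was not settled, so a replicate block was an alternative only. That block gives each number a single effect shared by all 4 groups, so it treats same-numbered siNC and siprdx1 cultures as paired. A block within each arm was not among the settings, so pairing within an arm alone was not tested. The fit with a replicate block called 21 genes, 1 positive and 20 negative, with 11 immediate early genes, and lost Cxcl10, Lilr4b and Sparcl1. It gave 800 genes for H2O2 in siNC. The replicate block with GC and length offsets gave 178 genes (65 positive, 113 negative), 18 of them immediate early, and 1387 and 2156 genes of the responses. Leaving out siprdx1+H2O2 replicates 1 and 2 together, the extremes of GC content, an alternative chosen after seeing the data, left 18 genes called, 1 of them positive, and the siprdx1 response held 412. That group then has 1 library, which is assumed to vary like the other groups, and the genes that rose or fell in both arms numbered 47 and 224.

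Leaving out each library in turn gave 15 to 43 interaction genes (0 to 2 positive, 15 to 41 negative) and 9 to 11 immediate early genes. There were 15 without siNC replicate 3, siNC+H2O2 replicate 1, siprdx1 replicate 3 or siprdx1+H2O2 replicate 3, and 43 without siprdx1+H2O2 replicate 1. The responses ranged from 381 to 1090 genes in siNC, lowest without siNC+H2O2 replicate 1, and from 559 to 1085 in siprdx1, lowest without siprdx1+H2O2 replicate 3. The siNC count also fell by over 1.5 times without siNC replicate 2 (437) or 3 (430) and siNC+H2O2 replicate 2 (539) or 3 (410), and the siprdx1 count without siprdx1 replicate 1 (629) or 3 (638). Hmox1, at 0.0002, changed sign to -0.011 with library size alone, -7.05e-05 with the replicate block and -0.00036 with limma voom, and ranged from -0.042 to 0.051 over single omissions. The cause of these shifts was not tested. Small differences in genes of few counts are limited by depth.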
